A study of Drosophila melanogaster with 14 samples.

Results

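Respiratory complex I takes electrons from NADH, passes them along a flavin and a chain of iron-sulphur clusters to ubiquinone, and couples this to pumping protons across the inner mitochondrial membrane. Its N module binds NADH and holds part of the clusters. Its Q module holds the other clusters and the ubiquinone site, and its P module is the proton-pumping membrane arm. Nuclear genes encode most of its subunits, and the mitochondrial genome encodes the hydrophobic core of the P module. In larvae the complex supplies muscle, gut and other energy-demanding tissues. In Drosophila, duplicated copies of nuclear respiratory genes are typically transcribed in testis.

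All genes of the expression table whose symbol starts with ND- were taken, which gave 40 of 17869 genes. Of these, 34 are genes of subunits and 6 carry the suffix L, L1 or L2 of a copy (ND-20L, ND-24L, ND-49L, ND-51L1, ND-51L2 and ND-B14.5AL). The symbol alone decided membership, but this set was chosen with earlier results of these data known. The label of nuclear complex I subunits held with a reservation for ND-MLRQ, whose counterpart in mammals, NDUFA4, is now counted with complex IV. NP15.6, the fly counterpart of the mammalian subunit NDUFB11, has another symbol and was kept apart. The subunit genes lie on chromosomes X (9), 2L (9), 2R (6), 3L (7), 3R (2) and 4 (1). None of the copies lies on X, and 2 each lie on 2R, 3L and 3R.

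Polyadenylated RNA of whole Drosophila melanogaster larvae of the third instar was sequenced in bulk from 4 genotypes. The control was w1118 (4 libraries), a white-eyed laboratory stock, and the mutants carried the septin alleles Sep2[2] (3 libraries), Sep5[2] (3 libraries) or, homozygous, Sep2[2] and Sep5[2] together (4 libraries, the double mutant). Septins are GTP-binding proteins that form filaments, and the title of the study concerns the neuromuscular junction. No group was treated, stocks were kept at 25 degrees C per the labels, and the labels do not give the sex or number of larvae, what the alleles remove, or whether samples came from separate cultures. All p-values are thus set by the spread among these libraries, which may be technical.

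Libraries held 8858393 to 47203028 reads, and 12586 genes passed the filter of more than 0 log2 CPM (read counts scaled to library size, TMM-adjusted by the authors) in at least 3 libraries. The protocol text speaks of adult flies, but the larval serum protein gene Lsp1alpha stood at 966 to 8352 CPM and the yolk protein gene Yp1 at no more than 0.272 CPM. By genotype, Lsp1alpha stood at 966 to 3216 CPM in the control, 3152 to 4204 CPM in the Sep2 mutant, 3279 to 7015 CPM in the Sep5 mutant and 3039 to 8352 CPM in the double mutant. The salivary glue gene Sgs3, active late in larval life, stood at 1642 to 7311 CPM in the control, 5121 to 6413 CPM in the Sep2 mutant, 1152 to 4582 CPM in the Sep5 mutant and 232 to 1898 CPM in the double mutant. The glue gene Sgs5 stood at 595 to 2258, 3298 to 4188, 594 to 2744 and 80.9 to 972 CPM in the same order. The part of larval stage in the results was not tested. Septin2 stood at 21.7 to 29.4 CPM in the Sep2 mutant, against 46.6 to 67.2 CPM in the control, and Septin5 was at 0.0681 CPM or less in the 3 Sep5 mutant libraries, against 3.58 to 7.84 CPM in the control. In the double mutant, Septin2 was at 0.270 to 0.726 CPM in replicates 1 to 3 and at 9.11 CPM in replicate 4, and Septin5 was at 0.116 and 0.207 CPM in replicates 2 and 1 but at 1.34 and 0.854 CPM in replicates 3 and 4. Counts for the double mutant are therefore also given from libraries 1 and 2 alone. Reads of mt:lrRNA, the large ribosomal RNA of mitochondria, made up 4.74% to 9.83% of control libraries and 10.6% to 24.9% of double mutant libraries. The part of this difference in the results was not tested.

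In the double mutant 29 of 33 tested subunit genes rose against the control, none fell, and their median log2 fold change was 0.82 (1.76-fold). Over all tested genes 45.0% were called, 22.5% higher and 22.5% lower, with a median of -0.01. Calls are those of limma at an adjusted p under 0.05, adjusted over all 12586 tested genes. Of the 6 copies, 3 fell and none rose, with a median of -0.86. No call among the 40 genes went against its class. With double mutant libraries 1 and 2 alone, 21 subunit genes were called higher and 2 copies lower. No share over all tested genes is given for that setting, here or below, nor for other alternative fits except the replicate block.

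The core subunits, those with counterparts in bacteria, were all called higher, 7 of 7, in the double mutant. ND-75 (BDGP6, as for all positions here, chromosome X, 8248651 to 8251687), the counterpart of mammalian NDUFS1 and the largest iron-sulphur subunit, stood at 132, 101.3, 128 and 69.0 CPM in control replicates 1 to 4. It stood at 107, 87.2 and 134 CPM in the Sep2 mutant, 149, 138 and 225 CPM in the Sep5 mutant, and 192, 184, 210.1 and 299 CPM in the double mutant. All double mutant libraries lay above all control and Sep2 mutant libraries and overlapped with the Sep5 mutant. The log2 fold change against the control was 1.06 (SE 0.24, adjusted p = 0.00321), that is 2.09-fold.

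ND-51 (chromosome 2L, 6060842 to 6062757), which binds NADH and the flavin in mammals (NDUFV1), was at 72.7, 69.3, 85.7 and 45.4 CPM in the control and 100.6, 143, 103 and 148 CPM in the double mutant. The groups did not overlap, and the log2 fold change was 0.87 (SE 0.23, adjusted p = 0.00812). About 6.10% of its exonic bases are shared with CG34180 on the other strand. ND-24 (chromosome X, 17632089 to 17633509), the partner of ND-51 in the flavin arm, was at 30.8, 37.5, 40.6 and 29.9 CPM in the control. It was at 46.4, 47.8 and 52.7 CPM in the Sep2 mutant, 55.7, 49.9 and 65.7 CPM in the Sep5 mutant and 62.9, 52.9, 57.4 and 78.1 CPM in the double mutant. Every library of each mutant lay above every control library. The log2 fold change in the double mutant was 0.85 (SE 0.16, adjusted p = 0.000904).

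**Figure D1:**
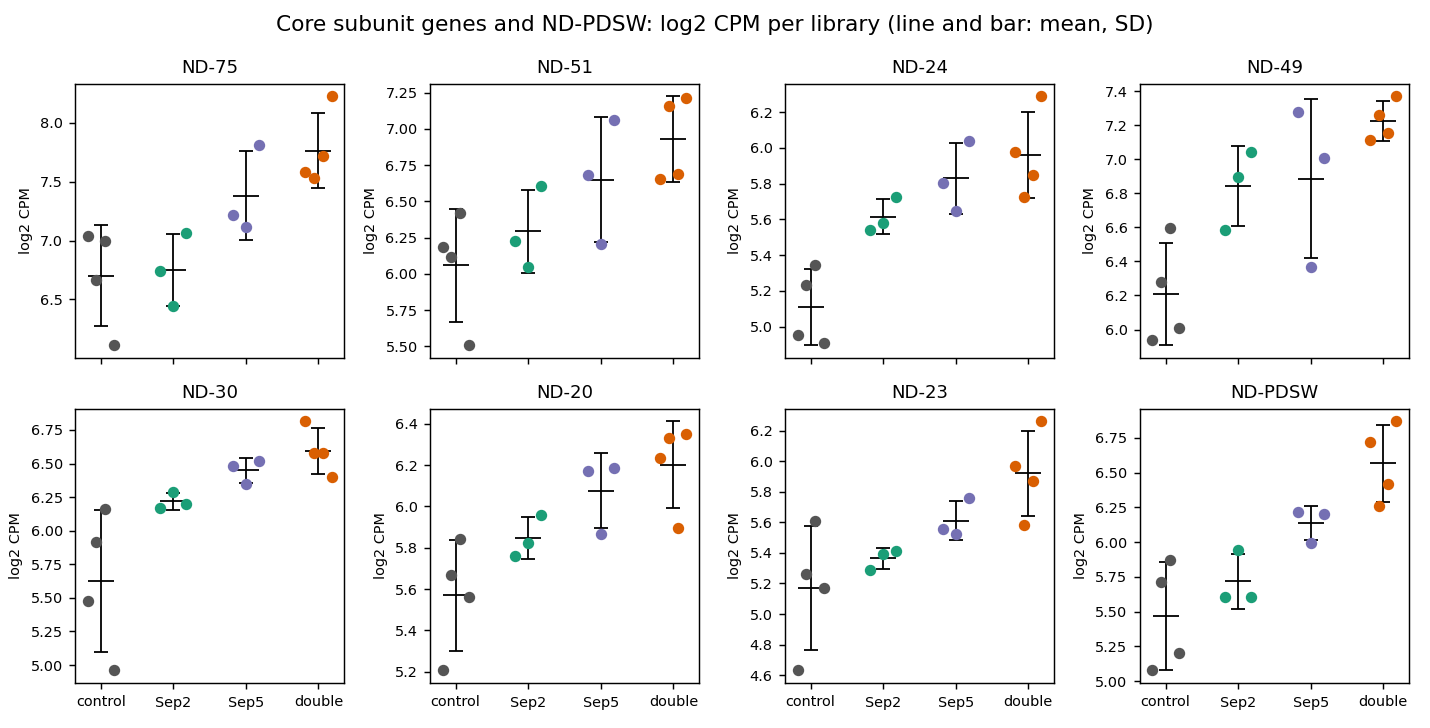
Log2 CPM of the 7 core subunit genes and of ND-PDSW in each of the 14 libraries, by genotype; points are libraries, and the line and bar give the mean and SD of a genotype. For ND-24, ND-49 and ND-75 the 4 double mutant libraries lie above all 4 control libraries, and control libraries spread widely for ND-30 and ND-23.

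The genes of the Q module were all called higher in the double mutant (8 of 8, median log2 fold change 0.77). ND-49 (chromosome 4, 568296 to 571554), which with ND-20 lines the ubiquinone site, was at 61.3, 77.7, 96.9 and 64.3 CPM in the control and 138, 153, 142 and 165 CPM in the double mutant. It was at 95.9, 119 and 132 CPM in the Sep2 mutant and 155, 82.6 and 129 CPM in the Sep5 mutant, so both single mutants overlapped with the control. The log2 fold change in the double mutant was 1.02 (SE 0.20, adjusted p = 0.00141). ND-20 (chromosome X, 15985473 to 15986808) rose less, by 0.63 (SE 0.16, adjusted p = 0.00612), from a mean of 48.1 CPM (SD 8.57, n = 4) to 74.1 CPM (SD 10.1, n = 4).

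ND-30 (chromosome 3L, 3158485 to 3159578), the counterpart of NDUFS3, was at 44.4, 60.3, 71.5 and 31.0 CPM in the control. It was at 113, 95.5, 95.6 and 84.2 CPM in the double mutant, with no overlap (log2 fold change 0.96, SE 0.21, adjusted p = 0.00238). ND-23 (chromosome 3R, 15836048 to 15837117), which carries iron-sulphur clusters next to the ubiquinone site in mammals (NDUFS8), rose by 0.75 (SE 0.19, adjusted p = 0.00653). Its double mutant libraries, at 62.5, 47.8, 58.5 and 76.7 CPM, overlapped with the control, at 24.7, 38.2, 48.8 and 35.9 CPM. Among accessory Q subunits, ND-B14.5A (chromosome X, 2172526 to 2173432) rose by 0.98 (SE 0.21, adjusted p = 0.00225) and ND-39 (chromosome 3L, 20492082 to 20497084) by 0.78 (SE 0.21, adjusted p = 0.00928). The other accessory Q genes, ND-B14 (NDUFA6 in mammals) and ND-13B (NDUFA5), rose by 0.77 and 0.58. With double mutant libraries 1 and 2 alone, the core gene ND-23 was not called by limma (adjusted p = 0.0690), and the other core genes were. The accessory genes ND-39 (0.0788), ND-B14 (0.0517) and ND-13B (0.184) were not called there either. ND-13B was called in 18 of 25 alternatives.

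Of the N module 5 of 7 tested genes were called higher, and ND-13A and ND-B8 were not. ND-13A, a zinc-binding subunit in mammals (NDUFS6), was at 24.1, 41.4, 38.0 and 25.3 CPM in the control and 50.4, 31.2, 31.9 and 42.2 CPM in the double mutant. These ranges overlapped widely (0.28, SE 0.23, adjusted p = 0.344). ND-18, the counterpart of NDUFS4 at the joint of the N and Q modules, rose by 0.72, and ND-B17.2, the counterpart of NDUFA12, by 0.50. For ND-B17.2 the alternatives gave adjusted p-values from 0.0192 to 0.0933, and the call did not hold without control replicate 1, without double mutant replicate 1 or 4, in a fit of both groups alone, or with double mutant libraries 1 and 2 alone. ND-B8 is described with the levels.

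In the membrane arm 6 of 7 proximal and 8 of 9 distal subunit genes tested were called higher. ND-PDSW (chromosome 2L, 3466157 to 3467334), a distal accessory subunit, had the largest increase of the 39 tested ND- genes and the smallest adjusted p. It stood at 33.7, 52.5, 58.6 and 36.7 CPM in the control, 48.6, 61.5 and 48.5 CPM in the Sep2 mutant, 74.1, 63.7 and 73.5 CPM in the Sep5 mutant and 105, 76.7, 85.4 and 117 CPM in the double mutant. The Sep5 and double mutant libraries all lay above the control, and the double mutant above both single mutants. The log2 fold change against the control was 1.10 (SE 0.20, adjusted p = 0.000646), or 2.14-fold.

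ND-B18 (chromosome X, 15063733 to 15064926) was at 22.1, 24.0, 27.6 and 23.1 CPM in the control, a narrow range, and at 42.8, 35.5, 39.0 and 57.1 CPM in the double mutant. The groups did not overlap, and its log2 fold change was 0.83 (SE 0.15, adjusted p = 0.000826). About 8.06% of its exonic bases are shared with opm on the other strand. Among proximal genes, ND-B14.5B (NDUFC2 in mammals) rose by 0.93, ND-42 (NDUFA10) by 0.91, ND-19 (NDUFA8) by 0.82, ND-B16.6 (NDUFA13) by 0.79, ND-B14.7 (NDUFA11) by 0.72 and ND-15 (NDUFS5) by 0.54.

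Of the remaining distal genes 6 rose. ND-B12 (NDUFB3 in mammals) was at 29.1, 44.3, 47.9 and 21.8 CPM in the control and 81.2, 56.4, 74.3 and 64.0 CPM in the double mutant (adjusted p = 0.00277), and its mean was 35.8 CPM (SD 12.4, n = 4) in the control and 68.9 CPM in the double mutant. ND-SGDH (NDUFB5) was at 37.0, 74.4, 77.8 and 48.2 CPM in the control and 108, 106, 96.1 and 143 CPM in the double mutant (0.98, SE 0.22, adjusted p = 0.00280). Neither gene overlapped between these genotypes, although control replicates 1 and 4 stood well below replicates 2 and 3 in both. ND-B15 (NDUFB4) rose by 0.88, ND-ASHI (NDUFB8) by 0.84, ND-B17 (NDUFB6) by 0.83 and ND-B22 (NDUFB9) by 0.60. ND-ASHI was almost level among the double mutant libraries, at 52.9, 54.3, 55.4 and 52.6 CPM, against 29.2, 35.9, 41.4 and 18.9 CPM in the control. ND-ACP, the mitochondrial acyl carrier protein that sits in both arms of the complex, rose by 0.87. ND-MLRQ rose by 0.79 and NP15.6 by 0.92, and the further subunit gene CG9034 of the list was not matched in the table. The distal gene ND-AGGG (NDUFB2) was at 17.3 CPM (SD 3.14, n = 4) in the control and 21.9 CPM (SD 4.64, n = 4) in the double mutant (log2 fold change 0.34, SE 0.21, adjusted p = 0.207).

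**Figure D2:**
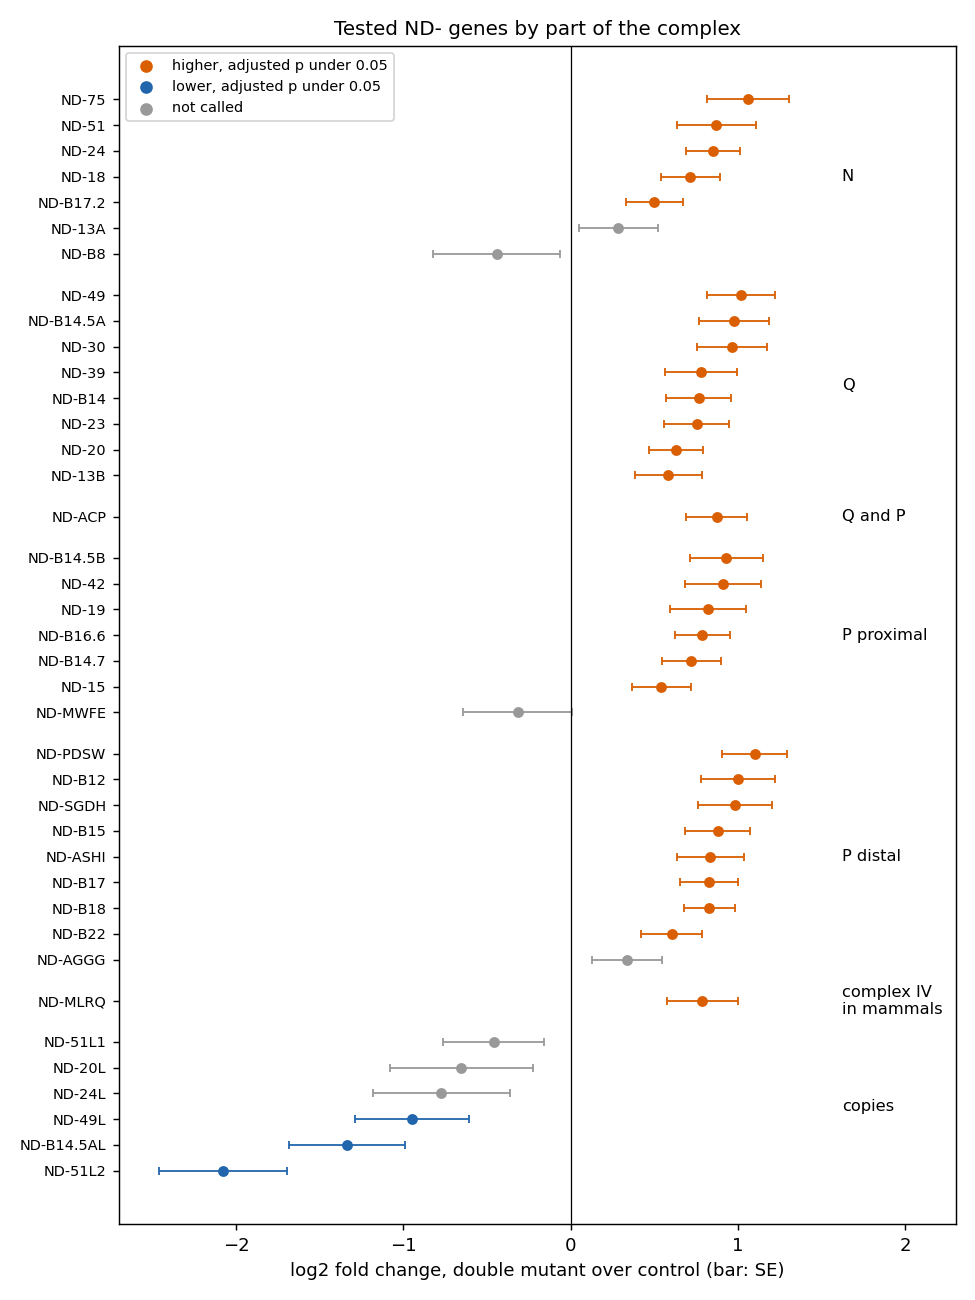
Log2 fold change of the double mutant over the control for the 39 tested ND- genes, ordered by module of the complex; points are limma estimates and bars their SE. The 29 called subunit genes lie between 0.50 and 1.10, and all 6 copies lie below 0.

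Subunit genes differed more in level than in change. Per kilobase of annotated exon, their control means ran from 3.72 CPM in ND-MWFE to 98.3 CPM in ND-MLRQ, with a median of 40.8 CPM over 33 genes and quartiles of 32.6 and 53.1 CPM. The quartiles of the log2 fold change in the double mutant were 0.63 and 0.91. The core genes had a median of 0.87 and the accessory genes one of 0.79. ND-MWFE and ND-B8 stood apart at 3.72 and 3.80 CPM per kilobase in the control, below every copy. They were the 2 subunit genes with negative estimates, -0.32 (SE 0.33, adjusted p = 0.456) and -0.44 (SE 0.38, adjusted p = 0.362), from 8 to 144 reads per library for ND-B8 and 19 to 200 for ND-MWFE. About 15.4% of the exonic bases of ND-B8 are shared with Gs1l on the other strand, and ND-MWFE shares 15.2% with Nrk on the same strand and 19.8% with TppII on the other. ND-MNLL was listed at 0 reads in all 14 libraries, where a count of 0 allows an expected count of up to 3 reads per library (counting error only), and was not tested. All of its annotated exonic bases (100%) also belong to CG45089 on the same strand, which was listed at 0 reads too.

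In 26 of 33 subunit genes every double mutant library exceeded every control library, a pattern found in 20.6% of all tested genes. ND-13A, ND-13B, ND-23, ND-AGGG, ND-B22, ND-B8 and ND-MWFE overlapped. About 26.1% of the exonic bases of ND-B22 are shared with CG31855 on the other strand. Summed over the 34 subunit genes, the libraries held 1206, 1516, 1769 and 1065 CPM in control replicates 1 to 4. The Sep2 mutant held 1632, 1854 and 1799 CPM and the Sep5 mutant 2110.0, 1846 and 2302 CPM. The double mutant held 2474, 2210.5, 2259 and 2770 CPM. On this TMM-adjusted scale every double mutant library lay above every control library. As an unadjusted share of all reads, these groups overlapped. The shares were 0.147%, 0.177%, 0.193% and 0.115% in control replicates 1 to 4. They were 0.183%, 0.211% and 0.184% in the Sep2 mutant and 0.190%, 0.201% and 0.233% in the Sep5 mutant. The double mutant had 0.198%, 0.184%, 0.190% and 0.227%. Scaled library size over reads was 1.08 to 1.22 in the control and 0.799 to 0.843 in the double mutant. Its part was not tested.

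Subunit genes moved together from library to library within the control. In control replicate 3 all 33 tested subunit genes were above their control mean, by a median of 0.40 on the log2 scale, and in replicate 2 there were 29, by 0.18. In replicates 1 and 4 only 4 and 5 were, and the medians were -0.27 and -0.29. Of all 12586 tested genes, 4873, 6810, 6537 and 6166 were above their control mean in control replicates 1 to 4. The medians over all tested genes were -0.10, 0.03, 0.01 and -0.01. The quartiles over genes in replicate 3 were 0.31 and 0.46. Genes measured in the same library are not independent of each other.

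The Sep2 mutant was compared with the control as the genotype labelled with Sep2[2] alone. Its Septin2 level, 21.7 to 29.4 CPM, exceeded the 0.270 to 9.11 CPM of the double mutant. The comparison may therefore not show the Septin2 state of the double mutant. The subunit genes had a median log2 fold change of 0.41, with 32 of 33 estimates above 0, beside -0.02 over all tested genes. ND-B17.2 (chromosome 2L, 2579201 to 2580172), an accessory subunit of the N module, was called, 1 of 33 subunit genes higher and none lower, beside 4.50% of all tested genes, 3.26% higher and 1.24% lower. Its values were 27.0, 36.6, 40.0 and 38.2 CPM in the control and 48.8, 66.1 and 56.3 CPM in the Sep2 mutant, without overlap (log2 fold change 0.69, SE 0.18, adjusted p = 0.0467). It was called in 9 of 25 alternatives, with adjusted p-values from 0.0126 to 0.168. Over the omissions of 1 library, the number of called ND- genes was 2 without control replicate 3, 1 without double mutant replicate 4 and 0 without any other library. In 6 of 33 subunit genes all Sep2 mutant libraries exceeded all control libraries, against 13.4% of all tested genes, and in none were they all below, against 7.49%. At an unadjusted p under 0.05 there were 13 subunit genes, against 2714 of 12586 tested genes.

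In the Sep5 mutant the median of the subunit genes against the control was 0.61, with 32 of 33 estimates above 0, beside -0.01 over all tested genes. ND-24 (0.72, SE 0.17, adjusted p = 0.0261) and ND-B14.5A (0.87, SE 0.23, adjusted p = 0.0399) were called higher and none lower, beside 5.13% of all tested genes, 3.89% higher and 1.24% lower. ND-B14.5A was at 39.1, 41.7 and 41.7 CPM in the Sep5 mutant and at 19.5, 25.6, 32.3 and 15.3 CPM in the control, without overlap. ND-24 was called in 20 of 25 alternatives (adjusted p from 0.0177 to 0.164) and ND-B14.5A in 11 of 25 (0.0102 to 0.163). In 22 of 33 subunit genes all Sep5 mutant libraries exceeded all control libraries, against 9.84% of all tested genes, and in none were they all below, against 5.32%. At the level of single genes 26 subunit genes had an unadjusted p under 0.05, against 2626 of 12586 tested genes. The count of called ND- genes depended on single libraries. It was 16 without control replicate 3, 6 without Sep5 mutant replicate 2, 1 without control replicate 2 or double mutant replicate 1 or 3, and 0 without control replicate 1 or 4 or Sep5 mutant replicate 1 or 3.

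**Figure D3:**
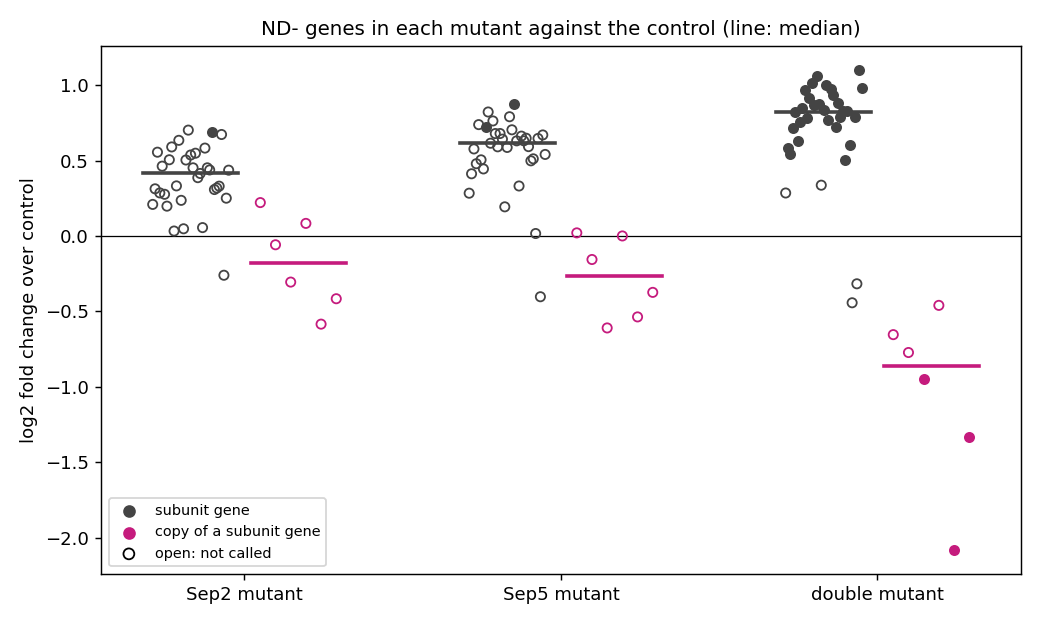
Log2 fold change over the control of 33 subunit genes and 6 copies in the Sep2, Sep5 and double mutants; each point is a gene, filled where called, and the line is the median. Medians of the subunit genes were 0.41, 0.61 and 0.82, and those of the copies -0.18, -0.26 and -0.86.

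All 3 of these comparisons use the same control libraries, so a control library that stands low or high moves them together. Control values do not enter the differences between mutants, although all 14 libraries share the estimate of spread. The Sep2 and double mutants differed in Septin2 as well as Septin5 transcript. The double mutant exceeded the Sep2 mutant in 5 of 33 subunit genes and was lower in 1 of 6 copies. Of all tested genes 28.9% were called, 16.0% higher and 12.9% lower, so both counts were near the shares over all tested genes. ND-75 was higher by 1.01 (SE 0.26, adjusted p = 0.0113) and ND-PDSW by 0.85 (SE 0.21, adjusted p = 0.00932). ND-39, ND-B14.7 and ND-B18 were higher by 0.75, 0.67 and 0.52. This count of 6 ND- genes was 2 without Sep2 mutant replicate 1 or 2, 10 without control replicate 4, 11 after centring, 26 with sample weights, and 0 with double mutant libraries 1 and 2 alone. How many of all tested genes these settings called is not given, so these changes in count cannot be ascribed to the ND- genes.

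Against the Sep5 mutant, the double mutant had 0 called subunit genes, by limma and by voom, and 0 at an unadjusted p under 0.05, with a median difference of 0.17 and a range of -0.46 to 0.44. Of all tested genes 8.91% were called, 5.16% higher and 3.75% lower, and 3364 of 12586 had an unadjusted p under 0.05. Between the Sep2 and Sep5 mutants 0 ND- genes were called by limma and by voom, 2 had an unadjusted p under 0.05, and 2.43% of all tested genes were called, 1.13% higher and 1.30% lower. In that comparison 1814 of 12586 tested genes had an unadjusted p under 0.05. Beside 6111 of 12586 tested genes, the Sep5 mutant had the higher mean in 28 of 33 subunit genes. With sample weights 3 were called, all lower in the Sep2 mutant.

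The interaction asks whether the double mutant departs from the sum of both single mutants. Septin2 transcript was lower in the double than in the Sep2 mutant, so a departure need not show how both losses combine. Its median over subunit genes was -0.24, with 24 of 33 below 0, beside -0.06 over all tested genes, with 6811 of 12586 below 0. The median estimate in the double mutant was 0.82 and the median of the summed single effects 1.04. No ND- gene was called by limma or voom, beside 4.47% of all tested genes, 2.21% above 0 and 2.26% below, and 2 had an unadjusted p under 0.05. Of 12586 tested genes 2599 had an unadjusted p under 0.05. The smallest adjusted p of an ND- gene was 0.0990 for ND-B17.2 (-0.78, SE 0.26).

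For the copies the estimates in the double mutant had the opposite sign, and 2 of 6 lay below the control in every library, against 19.4% of all tested genes. ND-51L2 (chromosome 2R, 15296764 to 15298329), a copy of ND-51, was at 13.2, 21.0, 14.8 and 8.80 CPM in the control, 9.61, 13.1 and 6.13 CPM in the Sep2 mutant and 7.29, 14.6 and 7.99 CPM in the Sep5 mutant. It was at 5.84, 2.51, 4.15 and 1.71 CPM in the double mutant, below every library of the other genotypes. Against the control its log2 fold change was -2.08 (SE 0.38, adjusted p = 0.000831). Against the Sep2 mutant it was -1.49 (SE 0.41, adjusted p = 0.0163), and against the Sep5 mutant -1.54 (SE 0.41, adjusted p = 0.0334). The latter call held in 18 of 25 alternatives. It was lost without a filter, with sample weights, in a fit of both groups alone and without Sep5 mutant replicate 2 or double mutant replicate 2 or 4, and that against the Sep2 mutant without Sep2 mutant replicate 1 or 2. Both were lost with double mutant libraries 1 and 2 alone.

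ND-B14.5AL (chromosome 3L, 22606369 to 22607126) was at 7.69, 16.7, 11.8 and 10.1 CPM in the control and at 6.32, 2.47, 5.89 and 3.93 CPM in the double mutant, without overlap (log2 fold change -1.34, SE 0.35, adjusted p = 0.00681). ND-49L (chromosome 3R, 25358285 to 25360034) was at 25.3, 35.9, 25.4 and 18.4 CPM in the control and 18.8, 10.2, 15.8 and 10.02 CPM in the double mutant. These groups overlapped at 1 library, and the log2 fold change was -0.95 (SE 0.34, adjusted p = 0.0344). That call did not hold without a filter, nor without control replicate 1, 2 or 3 or double mutant replicate 2 or 4, nor with double mutant libraries 1 and 2 alone, and adjusted p-values ran from 0.0114 to 0.136.

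The other copies did not pass the test. ND-24L was at 17.6, 20.4, 14.6 and 6.82 CPM in the control and 13.1, 5.05, 12.0 and 5.18 CPM in the double mutant. ND-51L1 was at 17.7, 21.8, 14.46 and 9.79 CPM in the control and 15.3, 9.76, 13.8 and 7.35 CPM in the double mutant. The log2 fold change of ND-24L (chromosome 3L, 17319969 to 17320811) was -0.77 (SE 0.41, adjusted p = 0.140), with adjusted p-values from 0.0363, without control replicate 4, to 0.327. ND-20L (chromosome 3R, 29515717 to 29516527) had -0.65 (SE 0.43, adjusted p = 0.230) and ND-51L1 (chromosome 2R, 17595267 to 17597409) -0.46 (SE 0.30, adjusted p = 0.229). All 3 overlapped with the control, and double mutant replicates 2 and 4 were the lowest of that genotype in each. In neither single mutant was a copy called, where the medians were -0.18 (Sep2) and -0.26 (Sep5).

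**Figure D4:**
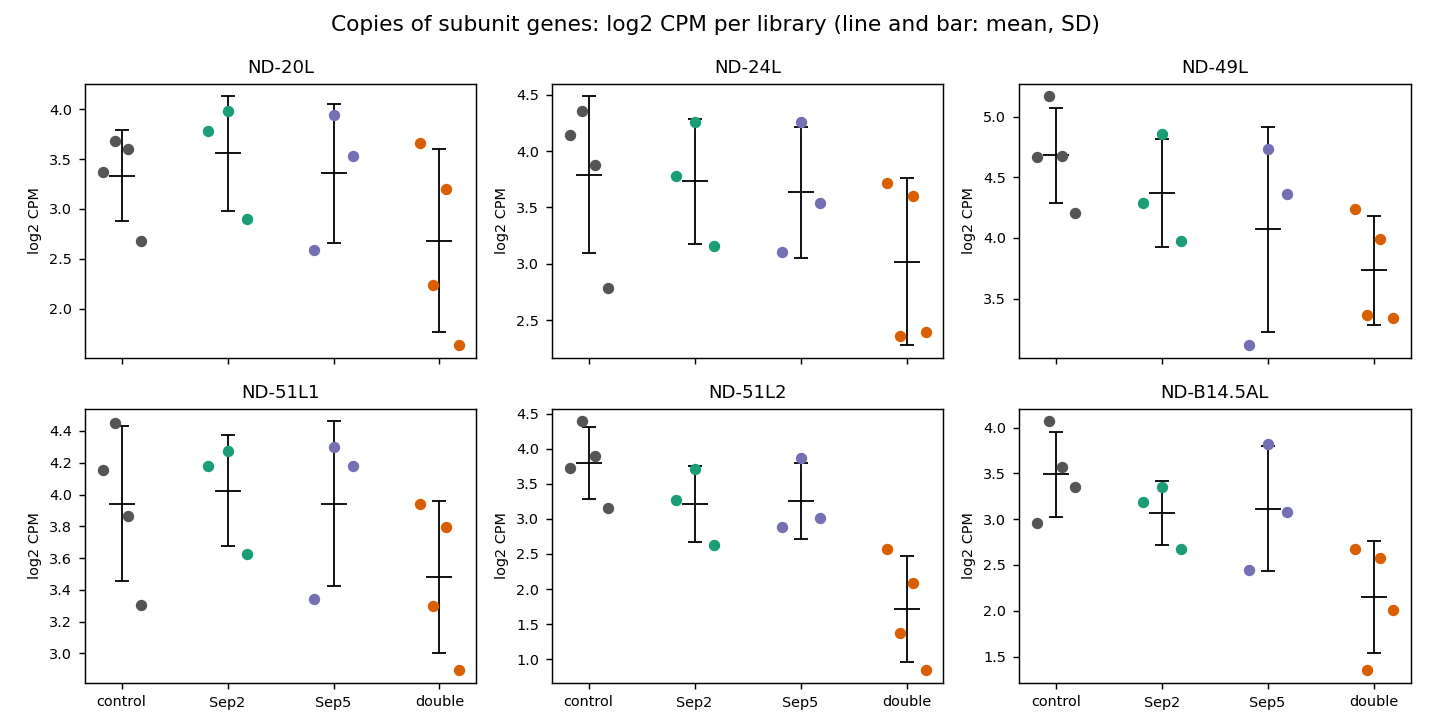
Log2 CPM of the 6 copies of subunit genes in each library, by genotype; points are libraries, and the line and bar give the mean and SD. ND-51L2 is lowest in the 4 double mutant libraries, and replicates 2 and 4 lie below replicates 1 and 3 in every copy.

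Set per kilobase of exon against the gene it derives from, ND-51L2 stood at 21.6% of ND-51 in the control (SD 6.13, n = 4) and 3.23% in the double mutant (SD 2.17, n = 4). ND-B14.5AL stood at 55.3% of ND-B14.5A (SD 17.1, n = 4) and 11.1% (SD 3.91, n = 4). ND-49L went from 33.4% of ND-49 (SD 9.07, n = 4) to 8.77% (SD 3.37, n = 4). The means of the single mutants lay between, at 13.2% and 11.1% for ND-51L2, 31.6% and 23.9% for ND-B14.5AL and 17.6% and 16.7% for ND-49L in the Sep2 and Sep5 mutants. Of the copies not called, ND-20L went from 37.3% of ND-20 to 17.7%, ND-24L from 53.7% of ND-24 to 18.3% and ND-51L1 from 17.5% of ND-51 to 7.48%. Their Sep2 mutant means were 36.9%, 36.2% and 16.3%, and their Sep5 mutant means 28.6%, 29.9% and 12.4%. A share falls with a lower copy and with a higher source gene, so it repeats both results above. Reads of near-identical stretches can be divided between a copy and its source gene, so each share is uncertain.

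Male germline genes moved beside the copies. Of 18 tested markers of the male germline, 7 fell (6 with double mutant libraries 1 and 2 alone) and none rose in the double mutant, among them betaTub85D, the testis tubulin (-1.52), and the fuzzy onions gene fzo (-1.57). The share of all tested genes called lower was 22.5%. The other 11 did not pass, with estimates from -1.31 to 0.25, and the median of the 18 was -0.71. Omitting 1 library gave 6 to 9 calls. No marker of the 19 in the table was at 0 over a whole genotype. Their summed level was 988 to 1619.7 CPM in the control, 676 to 1274 CPM in the Sep2 mutant, 669 to 1369 CPM in the Sep5 mutant and 411 to 851 CPM in the double mutant. By library, the medians of the copies and then the germline markers against the control mean were 0.01 and -0.23, 0.53 and 0.37, 0.09 and 0.05, and -0.64 and -0.21 in control replicates 1 to 4. They were -0.15 and -0.21, 0.25 and 0.26, and -0.67 and -0.62 in the Sep2 mutant. In the Sep5 mutant they were -0.83 and -0.84, 0.34 and 0.24, and -0.28 and -0.29. The double mutant had -0.26 and -0.19, -1.37 and -1.06, -0.44 and -0.49, and -1.44 and -0.98. Both were lowest in double mutant replicates 2 and 4. In bulk samples fewer cells of a type and less RNA per cell cannot be told apart, and the part of germline content in the fall of the copies was not tested.

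Sarcomere genes rose in the double mutant, as the subunit genes did. Of 17 tested sarcomere markers, 14 rose (12 with double mutant libraries 1 and 2 alone) and none fell in the double mutant, with a median of 1.47, against 22.5% of all tested genes higher. In the Sep5 mutant 3 of 17 were called (median 1.12, 13 at an unadjusted p under 0.05), and none in the Sep2 mutant (median 0.29, 2 at an unadjusted p under 0.05, 0 by voom). The count of 3 was 9 without control replicate 3, 8 without Sep5 mutant replicate 2, 5 without double mutant replicate 4, 1 without control replicate 4, and 0 without control replicate 1 or Sep5 mutant replicate 1 or 3. Without control replicate 3, 2 were called in the Sep2 mutant. Their summed level was 11578 to 29769 CPM in the control and 38677 to 73593 CPM in the double mutant, with 16141 to 34440 CPM in the Sep2 and 30221 to 59109 CPM in the Sep5 mutant. No sarcomere marker was at 0 in any library. The part of muscle content in the rise of the subunit genes was not tested. By library, the medians of the subunit genes and then the sarcomere genes against the control mean were -0.27 and -0.38, 0.18 and 0.09, 0.40 and 0.71, and -0.29 and -0.54 in control replicates 1 to 4. They were 0.32 and 0.11, 0.52 and -0.05, and 0.37 and 1.03 in the Sep2 mutant. In the Sep5 mutant they were 0.62 and 1.28, 0.47 and 0.61, and 0.66 and 1.75. The double mutant had 0.84 and 1.29, 0.68 and 1.74, 0.74 and 1.08, and 0.91 and 2.08. Both medians were above 0 in every Sep5 and double mutant library. In the Sep2 mutant they did not go together, as replicate 2 had the highest subunit median of that genotype and the lowest sarcomere median.

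**Figure D5:**
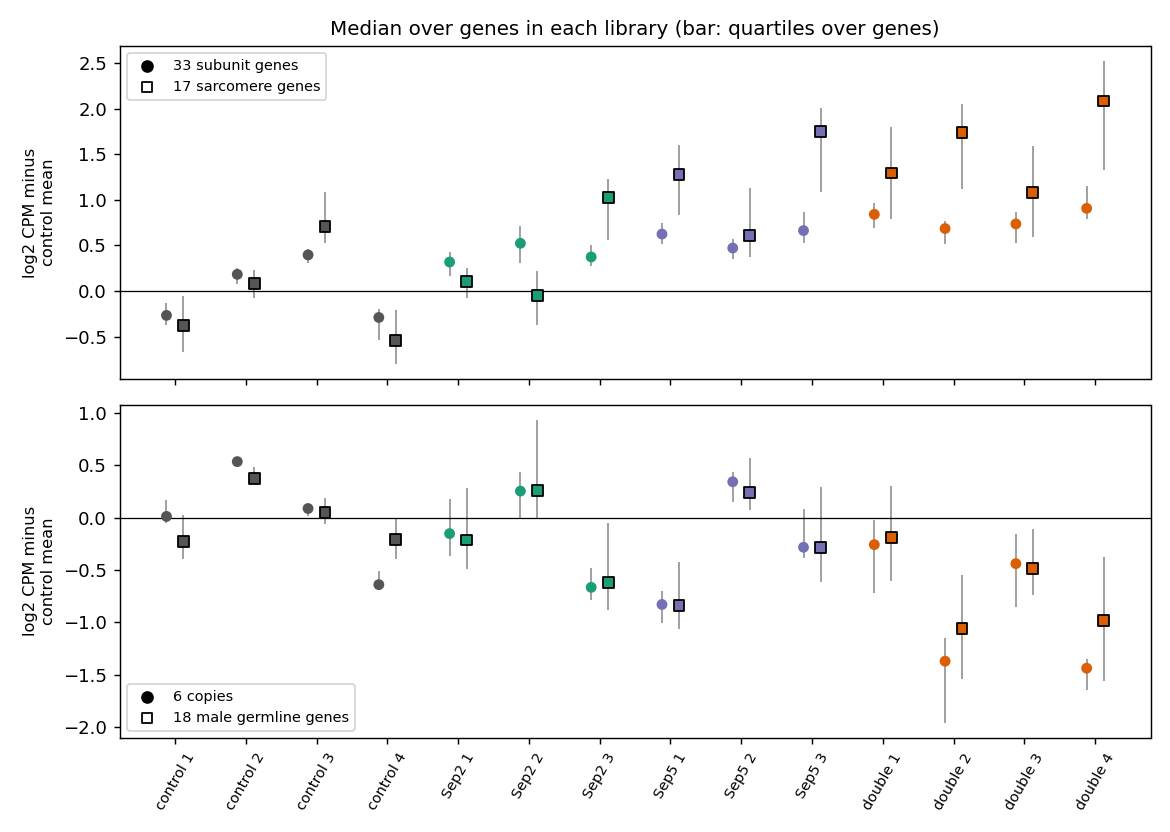
Median over genes of log2 CPM minus the control mean in each library, with quartiles over genes as bars; the upper panel sets 33 subunit genes beside 17 sarcomere genes and the lower panel 6 copies beside 18 male germline genes. Subunit genes lie between 0.68 and 0.91 in the 4 double mutant libraries, and copies and germline genes are lowest in double mutant replicates 2 and 4.

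The mitochondrial genome encodes 7 subunits, and 0 of 7 were called in the double mutant by limma or voom. Their median was 0.48, with 2 at an unadjusted p under 0.05, against 6614 of 12586 tested genes. Without control replicate 4 there were 2 calls, and 1 each without control replicate 3 or Sep5 mutant replicate 3. The difference from the nuclear subunit genes was not tested. The gene mt:ND1 was at 493, 569.6, 867 and 1792 CPM in the control and 1109.6, 948, 1603 and 2863 CPM in the double mutant, with overlap (0.87, SE 0.40, adjusted p = 0.0914). Medians were -0.27 (Sep2 mutant) and -0.46 (Sep5 mutant), with 0 called by limma or voom and 0 and 1 at an unadjusted p under 0.05. Assembly factors build the complex without being subunits of it. Of their list 7 of 9 genes were matched, and 2 rose in the double mutant, beside 22.5% of all tested genes, CIA30, which helps to build the membrane arm (0.77, SE 0.21, adjusted p = 0.00960), and CG17726 (0.81, SE 0.17, adjusted p = 0.00175). The list's median was 0.18, and with double mutant libraries 1 and 2 alone CIA30 was not called (adjusted p = 0.0901).

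Complex II, which feeds electrons from succinate into the same ubiquinone pool, rose in the double mutant in 4 of 4 genes. These were SdhA (0.76), SdhB (1.39), SdhC (1.05) and SdhD (0.43), beside 22.5% of all tested genes called higher. With double mutant libraries 1 and 2 alone 2 of 4 rose, and SdhA and SdhD were not called. SdhD (adjusted p = 0.0344) was called in 16 of 25 alternatives. Its copies SdhAL (-1.85, SE 0.34, adjusted p = 0.000733) and SdhBL (-0.75, SE 0.30, adjusted p = 0.0530) had negative estimates, and SdhAL fell. SdhAL was at 23.6, 31.1, 18.1 and 13.3 CPM in the control and 6.88, 4.71, 7.10 and 4.33 CPM in the double mutant, without overlap. The difference between complexes I and II was not tested.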

How the data were processed

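The authors deposited 1 table of log2 CPM values, and per the series' design text they scaled raw counts by TMM. The submitters' processing notes name STAR 2.7.11b, cutadapt 3.5, edgeR 3.40, FastQC 0.11.9 and, as builds, dm6 and BDGP6. The sources used here do not give the rule or strand setting for counting reads per gene. Each value less the floor of -3.65 log2 CPM was a whole multiple of 1 read for 100% of 250166 values within 0.01 reads, which gave reads and CPM per library. A count of 2.00 reads on average had been added before the log, so fold changes of low genes are pulled towards 0.

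Log2 values of 12586 genes were fitted with limma 3.58.1 in R 4.3.3, genotype as the only term, all 14 libraries together, with trended and robust shrinkage, and Benjamini-Hochberg adjustment per comparison. The fit was also run on simulated reads with few changed genes and known scaling, which does not test the scaling of these data. Positions are from Ensembl release 115 of BDGP6, found for 17790 of 17869 genes and all 40 ND- genes. No sequences are shown. Genes named are the core subunits, all copies, up to 4 called ND- genes per direction and comparison with the smallest adjusted p, and those singled out for levels or overlap after their values were seen. The remaining subunit genes are given to account for every member, outside that rule and after their values were seen. Members and lists were chosen with earlier results of these data known. Alternatives were the filter, 1 CPM added, quantile normalization, centring, the variance model, sample weights, voom on recovered reads, a fit of both compared groups alone, a replicate block and the omission of each library. The use of double mutant libraries 1 and 2 alone was added after the data were seen. Between the control and the Sep2 mutant, libraries with the same number deviated from their genotype's mean together (correlations of 0.305, 0.452 and 0.166 over genes). Sep5 mutant replicates 2 and 3 had 0.317 and 0.394 with the control and 0.446 and 0.440 with the Sep2 mutant. Its replicate 1 had -0.0847 and -0.239. Libraries with different numbers were not compared and the labels state no pairing, so whether the numbers pair samples is not known. The main fit has no block. No pair of groups other than the control and the Sep2 mutant had all correlations above 0.1.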

Additional observations from a re-analysis of the deposited data

Results flagged for a closer look

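ND-39 in control replicate 4, at 5.98 log2 CPM, lay far below the next control library at 6.88. Its gap took up 0.854 of the range of the group, above the limit of 0.829 for 4 samples. Of 78 groups of 4 libraries examined over the ND- genes, this was the 1 value past the limit, and chance gives about 1 in 20 groups. Without control replicate 4, ND-39 was still called higher in the double mutant. Its log2 fold change was 0.54 to 0.89 over all alternatives.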

How the results depend on the processing

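None of the 39 tested ND- genes changed sign in the double mutant against the control under any of the 25 alternatives. Of the 32 ND- genes called in the double mutant against the control, 23 were called in every alternative and 28 in every omission of 1 library, and the count was 28 to 32 over those omissions. In the Sep2 mutant against the control, 1 ND- gene was called. The count was 0 without a filter, after centring, without trend and robust shrinkage and with the libraries of both groups alone, 6 with sample weights, and 0 to 2 without 1 library. In the Sep5 mutant it was 2. The count was 1 without a filter, without trend and robust shrinkage, with sample weights, with the replicate block and with double mutant libraries 1 and 2 alone, 5 after centring, 0 with the libraries of both groups alone, and 0 to 16 without 1 library. For the double against the Sep2 mutant it was 6, and it was 11 after centring, 26 with sample weights, 0 with double mutant libraries 1 and 2 alone and 2 to 10 without 1 library. For the double against the Sep5 mutant it was 1, and it was 0 without a filter, with sample weights, with the libraries of both groups alone and with double mutant libraries 1 and 2 alone, and 0 to 1 without 1 library. Between the single mutants it was 0, and 3 with sample weights. The interaction gave 0 in all alternatives run. It has no fit of both groups alone. The cause of these differences was not tested. With the replicate number as a block, the control and Sep2 mutant comparison kept its count of 1. In the other comparisons the block gave 32, 1, 5, 1 and 0. Their order is double and Sep5 mutant against the control, double against Sep2 and Sep5 mutant, and Sep2 against Sep5 mutant. In the same order the block called 5706, 592, 3477, 1105 and 336 of all tested genes. Between the control and the Sep2 mutant it called 528. For the other alternatives no count over all tested genes is given. Depth limits ND-B8 and ND-MWFE, with 200 reads or fewer in every library. For ND-MNLL, at 0 reads, all exonic bases are shared with CG45089, and the rule for counting such reads is not given.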

Other observations

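Of 7 fat body markers 4 rose and 1 fell in the double mutant, and of 16 midgut digestive genes 8 rose and 3 fell, against 22.5% of all tested genes in each direction. With double mutant libraries 1 and 2 alone, the counts were 3 and 0 for fat body and 7 and 3 for midgut. The 5 fat body calls were 3 without control replicate 1 or 2 or double mutant replicate 2. Of 8 neuronal markers 0 were called by limma or voom in the double mutant (up to 2 without 1 library), with a median log2 fold change of 0.05. At an unadjusted p under 0.05 there was 1, against 6614 of 12586 tested genes.

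The genes outside the ND- set whose log2 CPM profile over the 14 libraries was most like the median of the core subunits were the cuticle protein gene Cpr60D (Pearson r 0.977), CG15213 (0.975), Cpr49Af (0.975), BckdhB, which encodes a subunit of branched-chain ketoacid dehydrogenase (0.974), and CAH9 (0.974). The sarcomere genes Mlp60A (0.973) and Mlc2 (0.966) came shortly after them in this order and were named after their values were seen. The first 5 were picked as the highest of all tested genes with a mean above 2 log2 CPM, and the libraries share genotype and depth, so these values describe the table and carry no test.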
